A study of Mus musculus with 4 samples.

Results

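Lhx2-positive, Krt75-negative cells of mouse back skin epidermis were selected on their own counts, in place of a clustering. A barcode was kept with a total of at least 1200 counts and at most 20% of them in mitochondrial genes, and a kept cell was chosen by 1 or more counts of Lhx2, 0 counts of Krt75, and fewer than 3 counts over the sebaceous lipid genes Elovl3, Far2 and Awat2. By this rule 690 of 34150 kept cells were selected. They came from 2 control mice, with 130 of 8480 and 81 of 9086 cells, and from 2 CerS4epi-/- mice, with 264 of 9017 and 215 of 7567 cells. CerS4 encodes a ceramide synthase, and the study asks what its loss does to the hair follicle stem cell compartment. In CerS4epi-/- mice (CerS4fl/flK14Cre+) a Cre driven by the keratin-14 promoter deletes the floxed gene in basal cells of all epidermal compartments and thus in their progeny. Controls were CerS4fl/flK14Cre- littermates, which carry the floxed alleles but no Cre, so a group with Cre and an intact gene was not analysed here. All 4 mice were C57BL/6N females at postnatal day 19, with 1 BD Rhapsody library per mouse, a microwell method that marks each transcript with a molecular identifier.

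The bulge is the lower part of the permanent hair follicle and holds the hair follicle stem cells. Its outer layer carries the stem cells, marked by the transcription factors Lhx2, Sox9 and Nfatc1, the surface protein CD34 and keratin-15, and its inner layer is marked by keratin-75 and keratin-6. Lhx2 is known as a factor that keeps these cells quiescent, and BMP signals from the niche act in the same sense.

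The labels do not give the capture of each library. No barcode was kept in both control libraries, where 87.1 would be shared by chance among 884736 possible barcodes, and none in both CerS4epi-/- libraries, where 77.1 would be. Between libraries of different genotype 64 to 102 barcodes were shared, near the 72.5 to 92.6 expected. Cells were tagged for multiplexing per the labels. If the mice of a genotype shared a capture, capture and genotype cannot be told apart in any comparison below. No barcode was a selected cell in more than 1 library, and leaving out all shared barcodes gave 344 genes higher and 373 lower, against 346 and 359 with them.

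Depth also moved with genotype. The selected cells had a median of 3282 and 3217 counts in the control mice and of 4783 and 4328 in the CerS4epi-/- mice. Their summed counts were 510357 and 333604 in controls and 1555383 and 1157260 in CerS4epi-/- mice, so that the control sums are the less precise. The median mitochondrial share was 8.30% and 8.36% in controls and 10.1% and 11.7% in CerS4epi-/- mice. Levels are given as CPM, the counts of a gene scaled to a fixed total of the summed counts of the selected cells in a mouse. Sums of counts cannot tell more transcripts per cell from more cells with the transcript.

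The label of outer bulge cells was met in part. Sox9, which was not used in the selection, had a count in 79.2% and 80.2% of the selected control cells and in 88.3% and 89.3% of those of CerS4epi-/- mice, against 1.52% to 5.84% of T cells in the same libraries, which were shallower (medians of 1541 to 1906 counts). Sox9 was no lower in Krt75-positive cells, which held 1539 and 1315 CPM in controls and 1923 and 1871 CPM in CerS4epi-/- mice, above the 1084 and 1139 and the 1555 and 1328 CPM of the selected cells. The defining surface marker Cd34 was near 0 in all 4 mice, with a count in 6 of 130 and 2 of 81 control cells and in 8 of 264 and 4 of 215 CerS4epi-/- cells. At the same time the control cells carried 11954 and 13777 CPM of Krt10, a keratin of suprabasal epidermis, and 1344 and 1310 CPM of Krt79, a keratin of the upper follicle. The population is called by its rule and not by a cell type. Few cells that should lack Lhx2 had a count of it, 1 of 451 T cells and 2 of 160 Langerhans cells. Barcodes too shallow to be kept held 6.30 to 14.2 CPM of Lhx2. The selected control cells were few as well, at 130 of 8480 and 81 of 9086 kept cells. What part of them was selected through Lhx2 from free RNA was not tested. Free RNA did hold Krt10, at 11728 and 11220 CPM in controls and 7483 and 7468 CPM in CerS4epi-/- libraries. Other genes were higher in the free RNA of CerS4epi-/- libraries, with Krt6a at 89.2 and 89.0 CPM in controls against 413 and 464 CPM, and Krt79 at 369 and 325 against 770 and 767 CPM. Sox9 stood there at 121 and 112 against 291 and 272 CPM, Cald1 at 3.78 and 5.75 against 59.2 and 55.4 CPM, and Gpx2 at 0 and 1.70 against 12.4 and 14.5 CPM. The part of free RNA in the values of the selected cells was not tested.

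The selected cells made up 1.53% (95% exact binomial interval 1.28 to 1.82%) and 0.891% (0.709 to 1.11%) of kept cells in the control mice. In the CerS4epi-/- mice they made up 2.93% (2.59 to 3.30%) and 2.84% (2.48 to 3.24%). Both CerS4epi-/- mice were above both controls, and the groups did not overlap. The mean share was 1.21% ± 0.454 (SD, n = 2) in controls and 2.88% ± 0.0612 (SD, n = 2) in CerS4epi-/- mice, a ratio of 2.38, and the exact two-sided permutation test gave p = 0.333, the smallest p that 2 mice against 2 can give. Intervals cover counting error only. A cell with more counts has a larger chance of an Lhx2 count, and with each cell thinned to 1200 counts the shares were 0.884% and 0.517% in controls and 1.46% and 1.31% in CerS4epi-/- mice. With 2 or more Lhx2 counts required they were 0.802% and 0.550% against 1.46% and 1.2%. The order of the 4 mice did not change under these limits, while the ratio fell to 1.98 after thinning and to 1.97 with 2 or more Lhx2 counts.

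Values of the genes that define the selection are a description. Lhx2 stood at 631 and 617 CPM in the selected control cells and at 352 and 321 CPM in those of CerS4epi-/- mice. Exactly 1 Lhx2 count, the lower edge of the rule, was found in 62 and 31 control cells and in 132 and 124 CerS4epi-/- cells. Cells just outside the rule were 21 and 20 control cells and 25 and 22 CerS4epi-/- cells that had an Lhx2 count together with Krt75. None of the cells with an Lhx2 count was left out by the lipid genes alone. The control cells with 1 Lhx2 count and those with 3 or more differed in Krt14, at 1877 and 2529 CPM against 540 and 384 CPM, while in CerS4epi-/- mice Krt14 was at 5354 and 6666 CPM with 1 Lhx2 count and at 6711 and 8674 CPM with 3 or more. Sox9 was higher with more Lhx2 counts in each mouse, from 851 to 1300 and from 967 to 1326 CPM in controls, and from 1152 to 2108 and from 1038 to 1688 CPM in CerS4epi-/- mice.

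**Figure D1:**
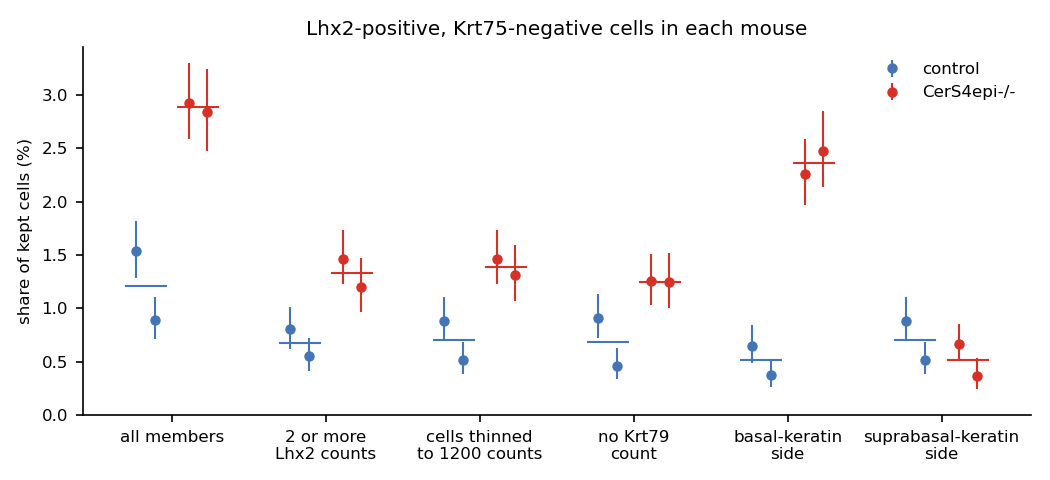
Share of kept cells (%) that were Lhx2-positive and Krt75-negative, 1 point per mouse with its 95% exact binomial interval and a line at the mean of each genotype, for all selected cells and for 5 narrower definitions. Both CerS4epi-/- mice lie above both controls in all but the suprabasal-keratin group, where the genotypes overlap.

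The selected cells were split by their keratin counts, and the proportions differed between genotypes. Cells whose Krt14 and Krt5 counts together exceeded those of Krt1 and Krt10, called the basal-keratin group here, were 55 of 130 and 34 of 81 selected cells in controls (42.3% and 42.0%). They were 204 of 264 and 187 of 215 in CerS4epi-/- mice (77.3% and 87.0%). By the same rule 22.9% and 30.3% of T cells in controls and 24.8% and 23.8% in CerS4epi-/- mice fell in the basal-keratin group, on a median of 0 or 1 count of Krt1 and Krt10 together. The selected cells of the suprabasal-keratin group had a median of 57 and 64 such counts in controls and of 35 and 37 in CerS4epi-/- mice, and those of the basal-keratin group a median of 27 and 28 against 51 and 63 counts of Krt14 and Krt5. Neither sum was above 2 times the other in 5 and 11 selected control cells and in 29 and 7 of CerS4epi-/- mice, and 4 cells with equal sums were put in the suprabasal-keratin group. The free Krt10 that was higher in controls was not subtracted, and its part in the split was not tested. Of all kept cells the basal-keratin group made up 0.649% and 0.374% in controls and 2.26% and 2.47% in CerS4epi-/- mice. The suprabasal-keratin group made up 0.884% and 0.517% against 0.665% and 0.370%. The ranges of the genotypes overlapped in the suprabasal-keratin group and not in the basal-keratin group. This split was chosen after the values were seen and rests on 4 keratins, of which Krt14 and Krt10 differed between genotypes themselves. A cell with more Krt14 or less Krt10 is put in the basal-keratin group whatever its other genes, so these shares, and the values within a group, describe the split and do not show where a change lies. The few counts of Cd34 in controls all lay in the basal-keratin group, at 52.5 and 29.8 CPM, against 13.1 and 8.61 CPM in CerS4epi-/- mice. Genes below were also fitted within each group where their counts there passed the filter, since the split differed between genotypes.

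Across all selected cells, 8008 genes passed the filter on low counts, and the quasi-likelihood test of edgeR, adjusted by Benjamini-Hochberg at 0.05, called 346 higher in CerS4epi-/- mice (4.32%) and 359 lower (4.48%). Lhx2, which chose the cells, is 1 of the 359, and its call is not a result. Within the basal-keratin group 650 of 7062 genes tested were called (9.2%), 322 of them higher (4.56%) and 328 lower (4.64%), and within the suprabasal-keratin group 210 of 4413 (4.76%), 113 higher (2.56%) and 97 lower (2.2%). Of the 705 genes called in all selected cells, 340 were called in the same direction in the basal-keratin group, which is 48.2% of the first list and 52.3% of the second. In the suprabasal-keratin group 155 were, 22.0% of the first list and 73.8% of the second. Requiring 2 or more Lhx2 counts left 398 of 5467 genes called (7.28%), of which 352 were among the 705 with the same direction. In cells with no Krt79 count 190 of 5562 were called (3.42%), 89 higher (1.6%) and 101 lower (1.82%), 170 of them among the 705. The median log2 fold change over the 8008 genes was 0.00. Each mouse has a library of its own per the labels, but whether the mice of a genotype shared a capture is not known, and p-values measure the spread between these 4 libraries alone.

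**Figure D2:**
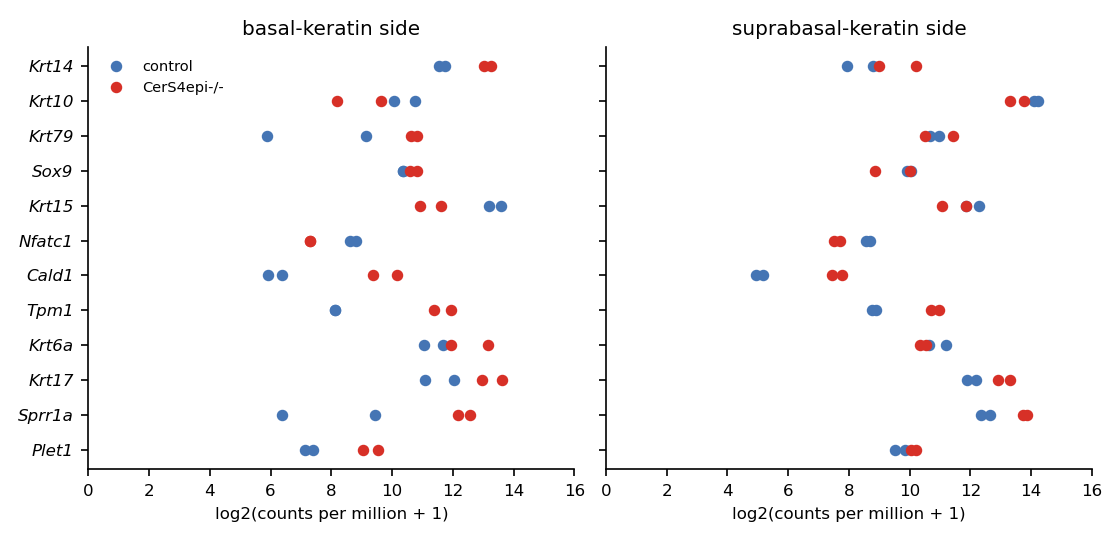
Level of 12 genes on the log2(CPM + 1) scale, 1 point per mouse, in selected cells with more Krt14 and Krt5 than Krt1 and Krt10 counts (left) and in the other selected cells (right). Krt79 and Plet1 were called higher in CerS4epi-/- mice on the left only, while Sprr1a, Cald1, Tpm1 and Nfatc1 were called on both sides. The sides are set by keratins that differ between genotypes themselves, so they do not show where a change lies.

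Among the genes given as markers of these cells, Krt6a, Gpx2 and Cald1 rose. Krt6a, a keratin of the inner bulge and of stressed epidermis, was at 2157 and 2272 CPM in controls and at 3139 and 7519 CPM in CerS4epi-/- mice, a log2 fold change of 1.33 ± 0.30 (SE, adjusted p = 0.017 by edgeR). Gpx2, a glutathione peroxidase, was at 80.3 and 77.9 CPM in controls and at 216 and 385 CPM in CerS4epi-/- mice (log2 fold change 1.97 ± 0.29, adjusted p = 0.0018). Cald1, caldesmon, which binds actin and tropomyosin, was at 50.9 and 39.0 CPM in controls and at 524 and 958 CPM in CerS4epi-/- mice, with a log2 fold change of 4.06 ± 0.33 and an adjusted p of 3.12e-05 by edgeR. For these 3 genes the second CerS4epi-/- mouse had the highest value, and the genotypes did not overlap. Krt6a and Gpx2 rose in the basal-keratin group (1.42 and 1.99 on the log2 scale) and stood at -0.45 and -0.11, not past the threshold, in the suprabasal-keratin group, whereas Cald1 rose in both (3.79 and 2.62). The call of Krt6a was also lost by DESeq2, after thinning and in cells without Krt79, and that of Gpx2 in cells without Krt79. Sox9 was at 1084 and 1139 CPM in controls and at 1555 and 1328 CPM in CerS4epi-/- mice, and its log2 fold change of 0.43 ± 0.13 did not pass the threshold (adjusted p = 0.073). Cd34 was too low to be tested in all selected cells. In the basal-keratin group its log2 fold change was -1.83 ± 0.57 and did not pass (adjusted p = 0.058 by edgeR). There Cd34 passed the filter on low counts only through the few counts of the controls. In cells without Krt79 its log2 fold change was -0.01 ± 0.52.

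Genes of the outer bulge fell more often than they rose. Of 15 tested out of 17, the genes Fst, Foxc1, Hopx, Nfatc1 and Krt15 fell, Runx1 rose and 9 did not pass, where 4.32% of all genes rose and 4.48% fell, with a median log2 fold change of 0.02 beside 0.00 over all genes. The call of Runx1 was lost in 6 of 18 alternatives, DESeq2 among them. Krt15 was at 6437 and 6250 CPM in controls and at 3303 and 1973 CPM in CerS4epi-/- mice, a log2 fold change of -1.21 ± 0.19 (adjusted p = 0.0029 by edgeR). Nfatc1, a factor of stem cell quiescence, was at 425 and 381 CPM in controls and at 172 and 162 CPM in CerS4epi-/- mice (log2 fold change -1.22 ± 0.15, adjusted p = 0.00063 by edgeR). Each control mouse was above each CerS4epi-/- mouse for both genes, and Nfatc1 was called lower in both keratin groups (-1.29 and -0.96). Hopx, a homeodomain protein of follicle stem cells, fell by 1.24 on the log2 scale, from 978 and 1082 CPM to 443 and 393 CPM, but stood at -0.38 and not past the threshold in the basal-keratin group. Lgr5, Tcf7l1, Tcf7l2, Vdr, Tbx1 and Postn lay between 0.02 and 0.25 on the log2 scale and did not pass. Within the basal-keratin group, where 4.64% of all genes fell, all 17 genes of the list could be tested, of which 6 fell (Fst, Nfatc1, Krt15, Itga6, Col17a1 and Npnt) and none rose, with a median of -0.66. Of the 4 tested genes of the inner bulge list, Bmp6 and Timp3 fell and Krt6a rose, where 4.48% and 4.32% of all genes did. Bmp6 passed the filter on low counts only through the controls, so its call is no support.

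Of the genes of the actin cytoskeleton and contractility, 16 rose. Of 24 listed, 23 were tested, of which 16 rose, 0 fell and 7 did not pass, where 4.32% of all genes rose, and the median log2 fold change was 0.95. The largest rises were those of Cald1, of Myl9, a regulatory light chain of myosin, and of the tropomyosin Tpm1. Tpm1 was at 411 and 384 CPM in controls and at 2458 and 3484 CPM in CerS4epi-/- mice, with a log2 fold change of 2.96 ± 0.18 and an adjusted p of 4.17e-06 by edgeR. Tpm2 followed with 104 and 95.9 CPM in controls and 366 and 483 CPM in CerS4epi-/- mice (2.14 ± 0.20 on the log2 scale). The groups were far apart for both genes. Myl9 rested on 2 counts in controls against 90 in CerS4epi-/- mice, a ratio of 14.0 with a counting interval of 3.76 to 117. Myl9 passed the filter on low counts only through the CerS4epi-/- mice, so its call, which is among the 16, is no support. Zyx, Csrp1, Flna, Lima1 and Actn1, which link or crosslink actin filaments, rose by 1.32 to 1.98 on the log2 scale, and the abundant Actb and Actg1 by 0.85 and 0.77. In the basal-keratin group 16 of 23 rose and 0 fell (median 1.10), where 4.56% of all genes rose. In the suprabasal-keratin group, with fewer CerS4epi-/- cells, 2 of 22 rose (Cald1 and Tpm1, median 0.27) beside 2.56% of all genes, and in cells with no Krt79 count 5 of 22 rose (median 0.55) beside 1.6%.

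The CArG box is the binding motif of serum response factor, which drives many actin genes, and it was searched in the 250 bases before the start of the canonical transcript of each tested gene (GRCm39, GENCODE vM39, both strands). It was found before 97 of 8002 genes with sequence (1.21%) and before 5 of the 346 that rose (1.45%). Of the 16 actin genes that rose it was found before 2 (12.5%), Actb and Lima1. Of the 23 tested actin genes it was found before 4 (17.4%), which adds Cnn2 and Vcl. Of these 4, 3 are shown, because they hold the same box and differ in whether they passed. Lima1 (log2 fold change 1.42, chr15:99718025-99718274, minus strand) rose, while Cnn2 (0.31, adjusted p = 0.39 by edgeR, chr10:79824161-79824410, plus strand) and Vcl (0.77, adjusted p = 0.24, chr14:20979216-20979465, plus strand) did not pass. Capitals mark the box.
Lima1: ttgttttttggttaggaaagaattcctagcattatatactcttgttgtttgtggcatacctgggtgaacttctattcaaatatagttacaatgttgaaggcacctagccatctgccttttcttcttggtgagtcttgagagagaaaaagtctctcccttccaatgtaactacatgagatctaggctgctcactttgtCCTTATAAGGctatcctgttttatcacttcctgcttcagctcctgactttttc
Cnn2: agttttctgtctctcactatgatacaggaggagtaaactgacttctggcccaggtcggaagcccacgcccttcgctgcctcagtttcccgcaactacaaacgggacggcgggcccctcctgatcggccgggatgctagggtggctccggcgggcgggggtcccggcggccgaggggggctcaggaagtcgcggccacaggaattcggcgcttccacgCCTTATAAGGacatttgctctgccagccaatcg
Vcl: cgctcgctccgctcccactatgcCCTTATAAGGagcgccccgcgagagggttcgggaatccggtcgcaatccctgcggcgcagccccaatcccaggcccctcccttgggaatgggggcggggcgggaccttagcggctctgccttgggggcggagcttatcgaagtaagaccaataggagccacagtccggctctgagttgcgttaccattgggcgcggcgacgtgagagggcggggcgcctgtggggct

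The box starts 33 bases before the start of Cnn2, 53 before Lima1 and 227 before Vcl. The letters TAATTA, a core bound by homeodomain proteins of the Lhx2 kind, were in 3.18% of windows of genes that rose and 3.9% of those that fell, against 2.8% of all. The motifs and genes were chosen after their values were seen, and a match in these windows is a description of the letters only.

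The 8 largest rises among genes with a mean of at least 50 CPM in CerS4epi-/- mice were Pcp4, Acta2, Fscn1, Aldh1a2, Car6, Lce1a1, Cmah and Lce1a2. Acta2 (chr19:34217737-34232990, minus strand), smooth muscle actin, had 0 counts in both controls and stood at 36.6 and 105 CPM in CerS4epi-/- mice, at least 18.6-fold higher when the controls are set at the limit of 3 counts over the group. Pcp4, a calmodulin-binding protein, had 0 counts in both controls and stood at 47.6 and 124 CPM, at least 22.6-fold higher. Fscn1, the actin bundler fascin, had 0 counts in both controls and stood at 24.4 and 113 CPM, at least 17.5-fold higher. These 3 genes passed the filters on low values only through the CerS4epi-/- mice, so their calls are no support, and the second CerS4epi-/- mouse was the higher in each. Other markers of muscle and vessel cells were near 0: Myh11, Des, Cdh5 and Kdr had 0 counts in all 4 mice, and Pecam1 had 5 and 0 counts in controls and 10 and 7 in CerS4epi-/- mice. Car6, a secreted carbonic anhydrase (chr4:150271472-150285789, minus strand), was at 9.80 and 3.0 CPM in controls and at 494 and 424 CPM in CerS4epi-/- mice. Its fitted log2 fold change was 6.05. Car6 rose in both keratin groups, by 6.25 in the suprabasal-keratin group. Aldh1a2, which makes retinoic acid, rested on 1 count in controls against 292, a ratio of 90.8 with a counting interval of 16.2 to 3600. Cmah, which modifies sialic acid, rested on 2 against 243 counts (37.8, interval 10.4 to 314). Car6, Aldh1a2, Cmah, Lce1a1 and Lce1a2, low in controls, also passed the filters on low values only through the CerS4epi-/- mice. Their calls are no support either.

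Late cornified envelope genes, which act at the end of epidermal differentiation, were among the rises. Lce1m was at 99.9 and 102 CPM in controls and at 1821 and 1469 CPM in CerS4epi-/- mice, a log2 fold change of 4.08 ± 0.18 with an adjusted p of 8.60e-07 by edgeR. Lce1a1 rested on 2 counts in controls against 302 (ratio 47.0, counting interval 12.9 to 390) and Lce1a2 on 2 against 206 (32.0, interval 8.76 to 266). The 2 CerS4epi-/- mice were close for these genes and far above both controls. Lce1 genes are near-identical neighbours, and reads that fit several were shared between them by estimation, so the split within the family is uncertain. The rise of Lce1m was called in both keratin groups (4.24 and 4.80 on the log2 scale), whereas Lce1a1 and Lce1a2 were tested only in the suprabasal-keratin group. T cells of the same libraries, which should lack Lce1m, held 143 and 132 CPM of it in controls and 445 and 1514 CPM in CerS4epi-/- mice, the last beside 1469 CPM in the selected cells of that mouse. Langerhans cells held 57.6 and 6155 CPM of Lce1m in controls and 66.4 and 63.9 CPM in CerS4epi-/- mice. Free RNA held 3273 and 3187 CPM of Lce1m in controls and 2834 and 2849 CPM in CerS4epi-/- libraries, and its part in the rise of Lce1m was not tested. Of Lce1a1 the T cells held 1 and 0 counts in controls and 4 and 6 in CerS4epi-/- mice.

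The 8 largest falls were Hsd17b13, Serpinb11, Ear2, Tnfrsf11b, Rptn, Tspan6, Cyp2b10 and Cryab. Serpinb11, a serpin, was at 298 and 423 CPM in controls and at 25.7 and 13 CPM in CerS4epi-/- mice, a log2 fold change of -4.09 ± 0.29 with an adjusted p of 1.07e-05 by edgeR. Cryab, a small heat shock protein, was at 496 and 378 CPM in controls and at 53.4 and 63.1 CPM in CerS4epi-/- mice (-2.86 ± 0.19, adjusted p = 7.32e-06 by edgeR). Tspan6, a tetraspanin, went from 157 and 120 CPM to 14.8 and 6.91 CPM, and Cyp2b10, a cytochrome P450, from 145 and 156 CPM to 23.1 and 14.7 CPM. All 4 were called lower in both keratin groups, and the genotypes were several-fold apart. Hsd17b13, a protein of lipid droplets, was at 35.3 and 126 CPM in controls and rested on 5 counts in CerS4epi-/- mice. Tnfrsf11b, the decoy receptor osteoprotegerin, stood at 54.9 and 51.0 against 3.86 and 3.46 CPM, and Ear2, a secreted ribonuclease, at 325 and 279 against 33.4 and 0 CPM. Rptn, repetin of the cornified envelope, was at 288 and 123 CPM in controls and at 9.00 and 24.2 CPM in CerS4epi-/- mice. Hsd17b13, Ear2, Tnfrsf11b and Rptn could be tested only in the suprabasal-keratin group, where they fell as well. These genes and Tspan6 passed the filter on low counts only through the controls, so their calls are no support.

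**Figure D3:**
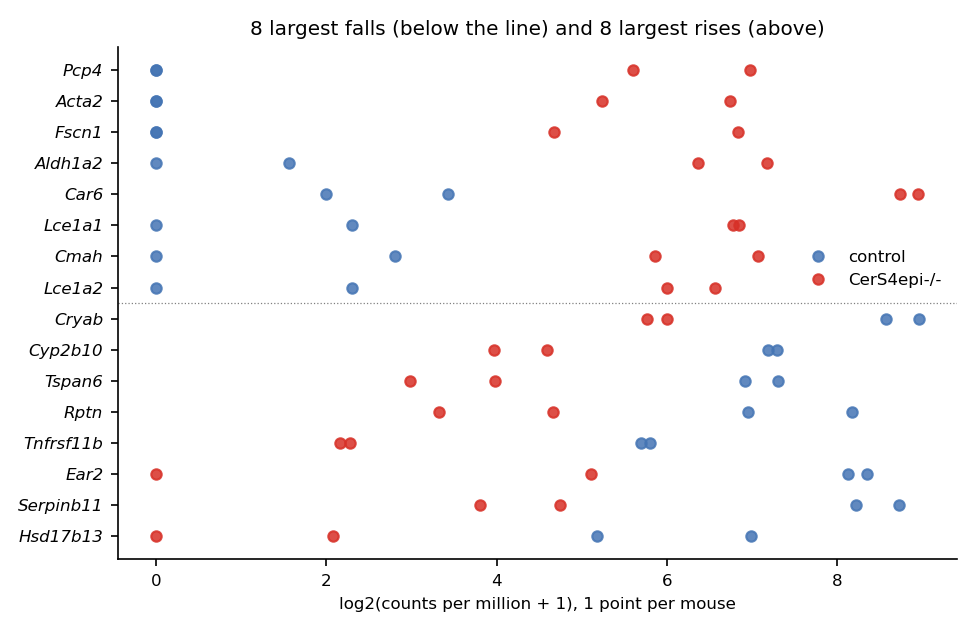
Level of the 8 largest rises and the 8 largest falls on the log2(CPM + 1) scale, 1 point per mouse, in the selected cells. The rule that chose these genes required the genotypes not to overlap, so their separation is no result, and Pcp4, Acta2 and Fscn1 are at 0 in both controls.

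BMP genes fell or did not pass. Of 14 tested out of 15, the ligands Bmp6, Bmp2 and Bmp4 and the antagonists Fst and Grem1 fell and 9 did not pass, where 4.48% of all genes fell, with a median log2 fold change of -0.14. Bmp2 was at 86.2 and 83.9 CPM in controls and at 21.9 and 9.51 CPM in CerS4epi-/- mice (-2.31 ± 0.34, adjusted p = 0.0018 by edgeR), a call that was lost with 2 or more Lhx2 counts required. Fst, follistatin, was at 1134 and 791 CPM in controls and at 204 and 169 CPM in CerS4epi-/- mice (-2.32 ± 0.18, adjusted p = 2.89e-05 by edgeR). Bmp6 was low throughout, at 39.2 and 30.0 CPM against 4.5 and 2.59 CPM. The genotypes stood apart in Bmp2, Fst and Bmp6. Bmp2 and Bmp6 passed the filter on low counts only through the controls, so their calls are no support. The levels of the 4 target genes Id1, Id2, Id3 and Smad7 did not pass. Of 13 tested in the basal-keratin group 5 fell (Fst, Bmp2, Bmp4, Grem1 and Id3) and 0 rose, where 4.64% of all genes fell.

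Wnt genes were called in both directions. Of 19 tested non-canonical Wnt genes out of 23, the receptor Fzd6 and the planar polarity gene Vangl1 rose (1.40 and 0.92 on the log2 scale), Daam1 fell (-0.87), and 16 did not pass, where 4.32% of all genes rose and 4.48% fell, with a median of 0.25. The call of Vangl1 was lost in 7 of 20 alternatives and that of Fzd6 in 4 of 20. Fzd6 was at 49.0 and 45.0 CPM in controls and at 115 and 125 CPM in CerS4epi-/- mice. The ligand Wnt5a was too low to be tested, at 5.88 and 6.00 CPM against 3.21 and 3.46 CPM. Of 6 tested canonical targets out of 12, Ccnd1 rose (1.24, a call lost in 6 of 18 alternatives) and the feedback gene Axin2 stood at 56.8 and 30.0 CPM in controls and 29.6 and 24.2 CPM in CerS4epi-/- mice, which did not pass. Lef1 had 0 counts in all 4 mice. Of 14 tested hemidesmosome, integrin and matrix genes out of 21, 0 passed in either direction, but within the basal-keratin group, where 4.64% of all genes fell, 7 of 16 fell and 0 rose, among them Col17a1 (-1.08), Itga6 (-1.11) and Lamb3 (-1.07).

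Of 11 upper follicle genes, 4 rose, 3 fell and 4 did not pass, where 4.32% of all genes rose and 4.48% fell, with a median of 0.38. Krt17, at 4481 and 3282 CPM in controls, stood at 8546 and 11629 CPM in CerS4epi-/- mice (log2 fold change 1.44), and Krt79 went from 1344 and 1310 to 1949 and 1728 CPM (0.53). Sprr1a, a cornified envelope precursor, went from 4256 and 3843 to 7817 and 7530 CPM (0.98). That call was lost after thinning and with 2 or more Lhx2 counts required. The beta-defensin Defb6 was at 6213 and 7896 CPM in controls and at 1852 and 601 CPM in CerS4epi-/- mice (-2.47 ± 0.38, adjusted p = 0.0022 by edgeR), and the kallikrein Klk10 and the transcription factor Gata6 fell as well. None of these 3 passed within either keratin group. The call of Klk10 was also lost by DESeq2, at the limit of 10% mitochondrial counts and without Krt79. Its direction turned in the basal-keratin group (0.25). In the basal-keratin group 7 of 11 rose and 0 fell, where 4.56% of all genes rose, with a median of 1.85. There Plet1, a surface protein of the follicle isthmus, was at 140 and 169 CPM in controls and at 520 and 736 CPM in CerS4epi-/- mice (2.20 on the log2 scale). Over all selected cells Plet1 did not pass. Its direction turned after thinning (-0.24), with 2 or more Lhx2 counts (-0.27) and without Krt79 (-0.77). Krt79 stood in the basal-keratin group at 58.4 and 566 CPM in controls against 1569 and 1799 CPM (2.76). The controls differed widely for Krt79, yet both lay below both CerS4epi-/- mice. Among cells with no Krt79 count, which were 77 of 130 and 42 of 81 in controls and 113 of 264 and 94 of 215 in CerS4epi-/- mice, 0 rose and 4 of 10 fell where 1.82% of all genes fell, Sprr1a among them (-2.63). Krt79 is a gene of this list and differed by genotype, so leaving out cells by its count acts on the list itself, and these falls are a description.

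Of the genes of interfollicular epidermis, Krt14 rose from 1299 and 1205 CPM to 6035 and 7885 CPM (log2 fold change 2.53 ± 0.15, adjusted p = 3.67e-06 by edgeR), and Krt10 fell from 11954 and 13777 CPM to 3725 and 2985 CPM (-1.88 ± 0.14). Krt5, the partner of Krt14, stood at 3695 and 3834 CPM in controls and 3858 and 5002 CPM in CerS4epi-/- mice, which did not pass. Of 7 basal genes 1 rose and 1 fell, and of 9 tested differentiation genes 0 rose and 3 fell (Krt10, Dmkn and Sbsn), where 4.32% of all genes rose and 4.48% fell. Counts within the keratin groups differed from this, but Krt14 and Krt10, which form the groups, differ by genotype, so they describe which cells each group holds. In the basal-keratin group 4 of 9 tested rose (Lor, Flg, Krtdap and Calm4) and Krt10, which defines the split, fell, with a median of 1.41. There 4.56% of all genes rose and 4.64% fell. In the suprabasal-keratin group 3 of 9 rose (Ivl, Calm4 and the defining Krt1) and 0 fell, with a median of 0.70, beside 2.56% and 2.2% of all genes. Lor, loricrin of the cornified envelope, went from 105 and 169 CPM to 1340 and 1178 CPM in the basal-keratin group, while T cells held 403 and 396 CPM of it in controls and 3764 and 4173 CPM in CerS4epi-/- mice. Langerhans cells, which should lack Lor as well, held 220 and 7046 CPM in controls and 174 and 144 CPM in CerS4epi-/- mice. The part of free RNA in the Lor values was not tested. Dmkn and Sbsn did not pass in either group. Of 8 tested sebaceous genes Mgst1 and Fabp5 rose and Scd1 fell, beside the same shares of all genes.

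Glutathione and redox genes were called in both directions. Of 15 tested out of 19, where 4.32% of all genes rose and 4.48% fell, 6 rose (Mgst1, Gpx2, Hmox1, Gclm, Gsto1 and Gpx4), 3 fell (Gstm5, Gstm1 and Gpx1) and 6 did not pass, with a median of 1.12. Gclm, a subunit of the enzyme that limits glutathione synthesis, was at 31.4 and 27.0 CPM in controls and at 90.7 and 87.3 CPM in CerS4epi-/- mice (1.65 ± 0.26). Of 14 tested in the basal-keratin group 4 rose and 1 fell, where 4.56% and 4.64% of all genes did. In the suprabasal-keratin group 2 of 13 rose and 1 fell (median 0.0054), beside 2.56% and 2.2% of all genes, in cells without Krt79 2 of 13 rose beside 1.6%, and the call of Hmox1 was lost in 6 of 19 alternatives. Of sphingolipid genes, 27 of 31 were tested, of which 3 rose, 5 fell and 19 did not pass (median -0.03). Among basal-keratin cells 3 of 24 rose and 0 fell, and in the suprabasal-keratin group 4 of 22 rose and Sptlc3 fell. Sptlc3, a subunit of serine palmitoyltransferase that starts the pathway, fell from 210 and 273 CPM to 50.1 and 41.5 CPM (-2.31 ± 0.21), and the alkaline ceramidase Acer2 rose from 9.80 and 18 CPM to 79.7 and 52.7 CPM (2.40 ± 0.41). Sptlc3 stood at -0.41 and not past the threshold in the basal-keratin group, where Acer2 rose by 2.24. Acer2 passed the filter on low counts only through the CerS4epi-/- mice, so its call is no support. The deleted gene was scarcely measured in these cells: Cers4 had a count in 3 of 130 and 6 of 81 control cells and in 4 of 264 and 4 of 215 CerS4epi-/- cells, too few to be tested or to check the labels, and counts over the gene need not fall within the deleted part.

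Of 8 tested cell cycle genes, Top2a, Cdk1 and Pcna fell and 0 rose, where 4.48% of all genes fell, with a median of -1.17. The call of Top2a was lost in 3 and that of Cdk1 in 5 of 16 alternatives, DESeq2, the limit of 10% mitochondrial counts and cells without Krt79 among them for both. Top2a, needed to separate chromosomes, was at 145 and 65.9 CPM in controls and at 40.5 and 5.18 CPM in CerS4epi-/- mice (-2.10 ± 0.56, adjusted p = 0.040 by edgeR), and Mki67 at 70.5 and 18 against 21.2 and 10.4 CPM, which did not pass. The first control mouse was the highest for both. Among basal-keratin cells 4 of 8 fell (Top2a, Cdk1, Mki67 and Pcna), where 4.64% of all genes fell. Of 15 immediate early and dissociation genes, Hspa1a fell, 0 rose and 14 did not pass (median -0.36), which is near the 4.48% of all genes that fell. Hspa1a kept direction and call in 11 of 20 alternatives and stood at 0.23 in the basal-keratin group. Of 5 tested interferon and antigen presentation genes 0 passed, while in the basal-keratin group B2m and H2-K1 rose and 0 fell (median 0.37), where 4.56% of all genes rose.

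**Figure D4:**
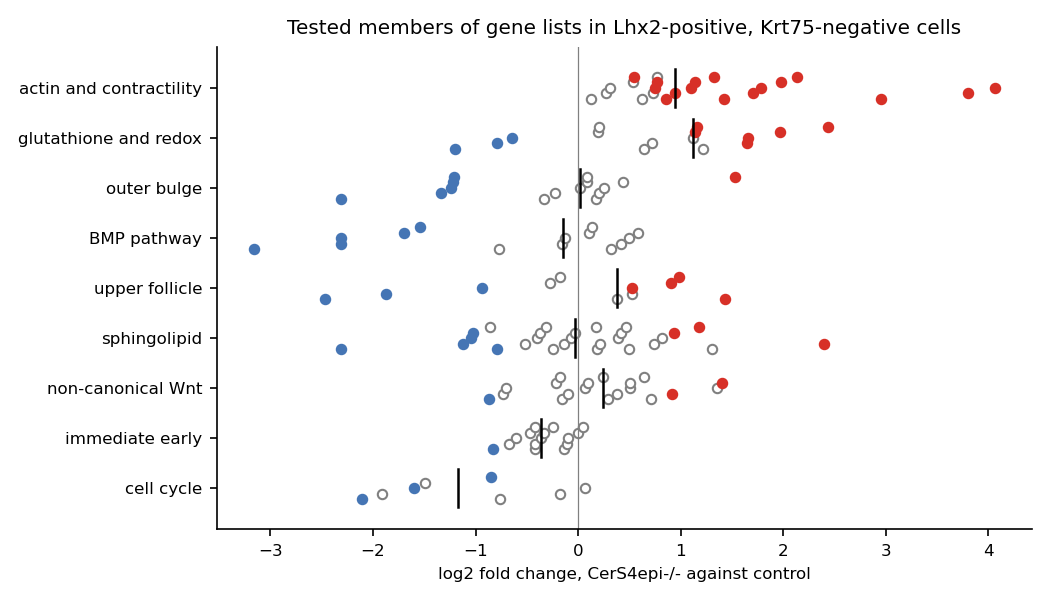
Log2 fold change (CerS4epi-/- against control) of each tested member of 9 gene lists in the selected cells, with red points called higher, blue points called lower, open points not past an adjusted p of 0.05, and a black line at the median. Actin genes lie to the right of 0 with 16 called higher, Myl9 among them, and the called BMP genes lie to the left. Myl9 and Acer2 passed the filter on low counts only through the CerS4epi-/- mice, and Bmp2 and Bmp6 only through the controls.

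Markers of other cell types were low. T cell markers summed to 1 and 3 counts in controls and 4 and 6 counts in CerS4epi-/- mice, melanocyte markers to 2 and 0 against 1 and 5, and fibroblast markers to 5 and 4 against 15 and 25. Langerhans cell markers were uneven within each genotype, with 154 and 5 counts in controls and 14 and 133 in CerS4epi-/- mice, H2-Aa or Cd74 being the most abundant, and none of the 4 tested passed. With cells of 2 or more counts of such markers left out, 334 genes were higher and 358 lower.

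The genotype difference was compared with that in 5208 Krt79-positive, Lhx2-negative cells of the same mice, by an interaction of genotype with cell class in edgeR. It differed for 297 of 10809 genes (2.75%), of which 85 were positive, meaning a more positive log2 fold change in the selected cells, and 212 negative. Against 13322 cells called basal interfollicular by a similar rule (Krt14 and Krt5 above Krt1 and Krt10, no Lhx2, Krt75 or Krt79), 433 of 13011 genes differed (3.33%), 172 positive and 261 negative. That class held 1262 and 1719 CPM of Lce1m in controls, where free RNA held 3273 and 3187 CPM, and whether its cells express the gene was not tested. Car6 was at 26.1 and 4.5 CPM in Krt79-positive control cells and at 113 and 82.2 CPM in those of CerS4epi-/- mice. Its fitted log2 fold change was 3.57 higher in the selected cells. Lce1m was at 722 and 680 CPM in Krt79-positive control cells and at 595 and 989 CPM in those of CerS4epi-/- mice, overlapping between genotypes, and the difference of differences was 3.93 ± 0.30 (adjusted p = 2.34e-06). Lce1m thus rose in the selected cells from a control level below that of the Krt79-positive cells. For Lce1a1, at 3.92 and 0 CPM in the selected control cells, the fitted difference was 3.94. Car6 and Lce1a1 rest on few counts in the selected control cells, so their exact differences are no support. The 211 Krt75-positive cells, the class left out by the rule, were not in these fits. Car6 was at 6.95 and 12.9 CPM there in controls and at 724 and 106 CPM in CerS4epi-/- mice, Cald1 at 34.7 and 8.57 against 760 and 845 CPM, and Tpm1 at 427 and 424 against 1738 and 2439 CPM. Acta2 had 1 and 0 counts there in controls and 14 and 11 in CerS4epi-/- mice, while Lce1m stood at 247 and 55.7 against 40.0 and 37.6 CPM. Car6, Cald1 and Tpm1 were thus higher in both CerS4epi-/- mice in the Krt75-positive cells too, and Lce1m was not.

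Genes that fell in the selected cells and rose in the others gave the largest negative differences. Rptn was at 10.3 and 2.45 CPM in Krt79-positive control cells and at 16.5 and 50.1 CPM in those of CerS4epi-/- mice (difference -5.94 ± 0.34, adjusted p = 1.20e-07 by edgeR). Klk10 was at 246 and 144 CPM there in controls and at 1403 and 2246 CPM in CerS4epi-/- mice, against 3609 and 3528 CPM and 441 and 1437 CPM in the selected cells (difference -5.34 ± 0.29). Gsdma2, a gasdermin, was at 4.24 and 2.86 CPM there in controls and at 54.8 and 94.3 CPM in CerS4epi-/- mice, against 145 and 183 and then 81.7 and 70.9 CPM in the selected cells (difference -5.31 ± 0.40). For these 3 genes the control levels of the 2 classes were far apart and those of the CerS4epi-/- mice much closer. Against the basal class the extremes were Car6 (5.44), Lce1a1 (4.47) and Lce1m (4.01 ± 0.28) on the positive side and Rptn (-7.34), Gsdma2 (-5.76) and Defb6 (-4.30 ± 0.45) on the negative side. In basal-class control cells Rptn stood at 2.51 and 0.28 CPM and Gsdma2 at 0.096 and 0.094 CPM, so the exact size of their differences is uncertain. Car6 and Lce1a1 have the same limit in the selected control cells. Krt6a, whose rise in the selected cells was 1.33, rose by 6.39 in Krt79-positive cells, and Krt17, which rose by 1.44, stood at -0.02 there.

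**Figure D5:**
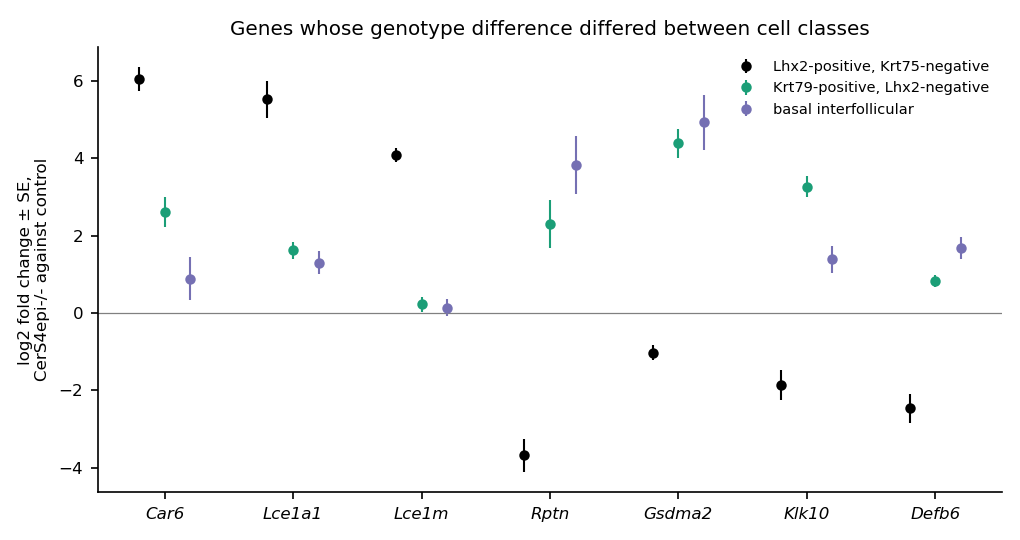
Log2 fold change (CerS4epi-/- against control, ± SE) of 7 genes in the selected cells, in Krt79-positive, Lhx2-negative cells and in the basal class. Of the 3 classes shown, the fold changes of Car6, Lce1a1 and Lce1m are highest in the selected cells, while Rptn, Gsdma2, Klk10 and Defb6 are below 0 in the selected cells and above 0 in both other classes. Car6 and Lce1a1 rest on few counts in the selected control cells.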

How the data were processed

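Single-cell RNA was measured in 4 libraries. The authors trimmed reads with fastp 0.23.2 and mapped and counted them with STAR 2.7.10a on GRCm39 and its Gencode vM29 annotation. Deposited were estimated counts of molecular identifiers per gene and barcode, shared by expectation maximization where reads fit several genes, and not filtered for cells. The cells and lists were chosen with earlier results of these data known. Doublets were not called. Counts of the 32479 genes were summed per mouse over the selected cells, rounded, filtered with filterByExpr, scaled by TMM and tested with edgeR 4.0.16 (R 4.3.3), whose steps were tested on simulated data. Class comparisons held mouse, class and their interaction with genotype. Named genes are the given markers, those the study names, the 3 largest changes of each list, and the 3 largest interactions on either side. The 8 largest rises and falls are named too. They were called, had a mean of at least 50 CPM in the genotype where they were higher, and had mice of both genotypes apart. Lhx2, used in the selection, stayed in the fit of all genes and is otherwise given as a description. Groups follow the labels. Alternatives were DESeq2 1.42.0 and other limits on genes, cells and mice. The value of 1 listed gene and 1 promoter sequence are not reported here.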

Additional observations from a re-analysis of the deposited data

Results flagged for a closer look

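Genotype differences that differed between cell classes by an interaction in edgeR, named as the 3 largest on either side, were noted for a closer look, as differences of log2 fold changes. Against Krt79-positive cells they were 3.94 for Lce1a1, 3.93 for Lce1m, 3.57 for Car6, -5.94 for Rptn, -5.34 for Klk10 and -5.31 for Gsdma2. Against the basal class they were 5.44 for Car6, 4.47 for Lce1a1, 4.01 for Lce1m, -7.34 for Rptn, -5.76 for Gsdma2 and -4.30 for Defb6. Values of Car6 and Lce1a1 rest on few counts in selected control cells. Those of Rptn and Gsdma2 against the basal class rest on very low levels in its control cells. The share of basal-keratin cells among the selected cells was higher in CerS4epi-/- mice, and its part in these differences was not tested.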

How the results depend on the processing

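Of 47 named genes called, 23 kept direction and call under each alternative in which they could be tested, 8 of them in all 20. Another 24 lost the call under some and 6 of these turned direction under some. Among the 23 are Acer2, Acta2, Aldh1a2, Bmp6, Car6, Cmah, Fscn1, Hsd17b13, Lce1a2, Myl9, Pcp4, Rptn, Tnfrsf11b and Tspan6. Those genes passed the filter on low counts only through the genotype where they were higher. The alternatives also hold the fits with a mouse left out, so the 23 are no measure of stability. By DESeq2 the calls of Ccnd1, Cdk1, Ear2, Hmox1, Hspa1a, Klk10, Krt6a, Runx1, Top2a and Vangl1 were lost, and after thinning those of Fzd6, Hspa1a, Krt6a, Sprr1a and Vangl1. With 2 or more Lhx2 counts required those of Bmp2, Ccnd1, Fzd6, Hmox1, Hspa1a, Ly6a, Runx1, Sprr1a, Timp3 and Vangl1 were lost. Against 346 genes higher and 359 lower, there were 60 and 78 with cells thinned to 1200 counts, 220 and 209 with equal cell numbers, 182 and 216 with 2 or more Lhx2 counts, 113 and 97 in the suprabasal-keratin group (added after seeing the data, as was the basal-keratin group), 89 and 101 in cells without Krt79, and 172 and 164 by DESeq2. Without a filter on low counts 627 were higher, where the median of all genes was 0.119, and at a limit of 10% mitochondrial counts 227 were lower. Leaving out each mouse gave 351 to 453 higher and 295 to 453 lower, where 1 genotype is a lone mouse that is assumed to vary like the other genotype, so these counts are no measure of stability. The replicate block gave 487 and 521, but samples of the same number did not deviate together (correlation -0.033), so the numbers do not pair the mice. Against Krt79-positive cells, with 85 and 212, DESeq2 gave 34 and 105, the 10% limit 42 and 111, and no filter 176 positive. Leaving out each mouse gave 106 to 130 (130 without control 2) and 186 to 303. Against the basal class, with 172 and 261, DESeq2 gave 91 and 160, and leaving out each mouse gave 152 to 266 (266 without CerS4epi-/- 1) and 206 to 377. The difference in share, 1.67 percentage points, was 0.657 with 2 or more Lhx2 counts, 0.563 without Krt79, 1.2 at the 10% limit, 0.685 after thinning, 1.86 in the basal-keratin group and -0.183 in the suprabasal-keratin group, and 1.35 to 1.99 with each mouse left out. Directions turned for log2 fold changes as follows. In the suprabasal-keratin group these were Sox9 (-0.36), Krt6a (-0.45), Gpx2 (-0.11), Axin2 (0.16), Tcf7l2 (-0.40), Ly6a (0.28), H2-K1 (-0.28) and Krt16 (0.41). In the basal-keratin group they were Postn (-0.87), Tcf7l2 (-0.42), Klk10 (0.25), Thbs1 (-0.42), Tnc (-0.14), Hspa1a (0.23), Ier3 (0.63), H2-Aa (1.22) and H2-Ab1 (1.40). At the 10% limit they were Postn (-0.63), Tcf7l2 (-0.51), H2-K1 (-0.019) and Krt16 (0.65). Without Krt79 they were Plet1 (-0.77), Sprr1a (-2.63) and Fosb (0.23), with 2 or more Lhx2 counts Plet1 (-0.27) and Krt16 (1.24), after thinning Plet1 (-0.24), and with equal cell numbers Postn (-0.23). In cells with Sox9 or Cd34 they were Tcf7l2 (-0.20) and Itga3 (0.27), and without the deepest 5% of cells Tcf7l2 (-0.031) and Flg (-0.12). With each mouse left out, Postn ranged from -0.17 (without CerS4epi-/- 1) to 0.59 and Tcf7l2 from -0.12 (without control 1) to 0.15. Without control 1 the direction turned for 5 other genes too, with ranges of -1.37 to 1.21 for Krt16, -2.63 to 1.61 for Ccnb1, -3.53 to 1.28 for H2-Aa, -5.08 to 1.26 for H2-Ab1 and -3.37 to 6.79 for H2-Eb1. The cause was not tested. The control cells, 211 in all, limit what low genes can show.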

Other observations

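Several abundant genes outside the rule for named genes, chosen after their values were seen, also differed between genotypes. Cxcl12, a chemokine, was at 9.80 and 15 CPM in controls and at 169 and 261 CPM in CerS4epi-/- mice, and Gja1, the gap junction protein connexin 43, at 98.0 and 114 CPM against 827 and 1080 CPM. Glul, which makes glutamine, was at 157 and 102 CPM in controls and at 1359 and 1192 CPM in CerS4epi-/- mice, a log2 fold change of 3.32 ± 0.19 by edgeR. Sox4, a transcription factor, stood at 52.9 and 27.0 CPM against 415 and 358 CPM. In the other direction Cdsn, corneodesmosin of the cornified layer, was at 4638 and 5372 CPM in controls and at 829 and 713 CPM in CerS4epi-/- mice, and Cd200, a surface protein found on bulge cells, at 157 and 180 CPM against 31.5 and 19.9 CPM. Because these 6 genes were chosen on their values, their lack of overlap between the genotypes is no result.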
